A study of Mus musculus with 6 samples.

Results

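Lymphocytes with T cell transcripts were described in single-cell RNA sequencing of mouse ileal crypts. The data came from 3 Fpr2f/f libraries, labelled WT, in which the gene of the formyl peptide receptor Fpr2 is flanked by recombination sites, and 3 Fpr2VKO libraries, in which Cre recombinase under the Villin promoter acts on the same gene. The Fpr2f/f mice were on the C57BL/6J background, and the background of the Villin-Cre mice crossed to them is not given in the sources used here. Mice were 8 to 12 weeks old and matched for sex and age. Crypt cells were released with TrypLE, sorted on the epithelial surface protein EpCAM and processed on the droplet platform MobiNova-100. Villin is an epithelial gene, so T lymphocytes are not the cells in which the Cre is meant to act, and the EpCAM gate should remove lymphocytes that do not travel with an epithelial cell. The single-cell data are described as coming from 3 mice per group, as many as there are libraries, but the labels do not tie each library to a mouse. The p-values measure the spread between libraries.

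T lymphocytes were selected by transcripts. Among barcodes with at least 1000 UMIs (unique molecular identifiers, each marking 1 captured transcript), at least 500 genes and at most 20% mitochondrial UMIs, a barcode was chosen when it held at least 3 of the 9 genes Ptprc, Cd3e, Cd3g, Cd8a, Cd7, Gzma, Gzmb, Ccl5 and Nkg7, with Cd3e, Cd3g or Cd8a among them. This rule chose 305 of 17104 kept barcodes. The 9 genes therefore describe the members and are not findings, and neither are other genes that set the members apart from the remaining barcodes. The position of a cell inside the epithelium was not measured, so the word intraepithelial rests on the tissue that was sorted.

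Intraepithelial lymphocytes are T cells that lie between the epithelial cells of the gut. Many carry the αE integrin chain (Itgae), which binds E-cadherin of the epithelium, and the chemokine receptor Ccr9, which guides cells to the small intestine. In the mouse small intestine they include cells with an αβ receptor and cells with a γδ receptor, and many use CD8 as an αα pair (Cd8a without Cd8b1) in place of the αβ pair of circulating cytotoxic T cells. They store granzymes and are known for surveying and killing stressed or infected epithelial cells.

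The 6 libraries held 90142126 to 189516114 UMIs, and 1868 to 4722 barcodes of each were kept. In this text, values in a series of 3 are replicates 1, 2 and 3 of a group, in that order. The members numbered 28, 57 and 59 in Fpr2f/f and 87, 52 and 22 in the Fpr2VKO libraries. They made up 1.06%, 1.21% and 2.08% of kept barcodes in Fpr2f/f and 3.84%, 1.88% and 1.18% in the Fpr2VKO libraries. The highest value belonged to Fpr2VKO replicate 1, and the groups overlapped. The mean share was 1.45% ± 0.552 (SD, n = 3) in Fpr2f/f and 2.30% ± 1.38 (SD, n = 3) in Fpr2VKO libraries, and the difference of 0.849 percentage points was smaller than the spread between Fpr2VKO libraries (exact two-sided permutation test, p = 0.6, where 0.1 is the smallest p that 3 against 3 allows). Without Fpr2VKO replicate 1 the difference was 0.0792 percentage points. With a mitochondrial limit of 10%, the shares averaged 4.58% and 8.54%, and with a limit of 40% they averaged 0.756% and 0.775%.

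**Figure D1:**
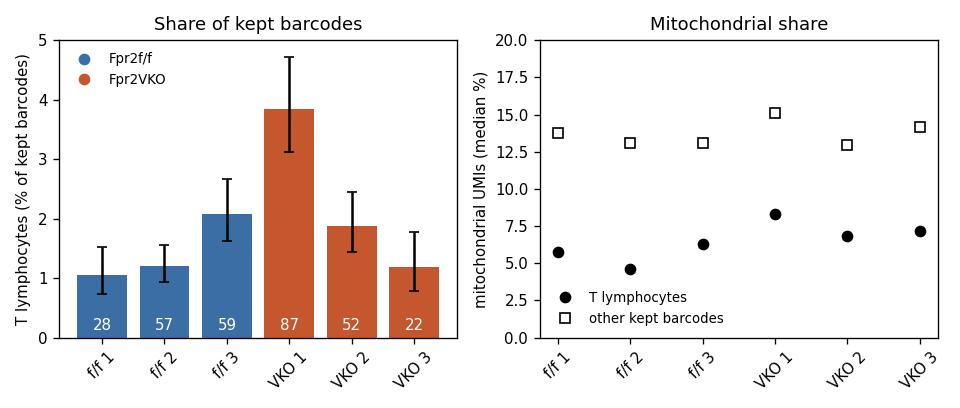
Left, members as a percentage of kept barcodes in each library, with the number of members in the bar and a 95% Wilson interval that covers counting error only. Right, median percentage of mitochondrial UMIs of the members (filled) and of the other kept barcodes (open), where the members lie lower in all 6 libraries.

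The mitochondrial limit touched the members less than the other barcodes. Before it was applied, 481 barcodes met the gene rule, and 46.3% to 89.7% of them per library passed the limit, against 9.61% to 34.1% of all other barcodes. Fpr2VKO replicate 1 stood apart here with 188 barcodes that met the gene rule, of which 87 passed. The median mitochondrial percentage of the members was 5.75, 4.64 and 6.32 in Fpr2f/f and 8.28, 6.85 and 7.16 in the Fpr2VKO libraries. The Fpr2VKO values were higher with no overlap (5.57% ± 0.854 against 7.43% ± 0.754, SD, n = 3 each, exact permutation p = 0.1). The median UMI total per member was 4090.5, 5649 and 5419 in Fpr2f/f and 7994, 4900.5 and 5944.5 in the Fpr2VKO libraries, with overlapping groups (exact permutation p = 0.4). Among the remaining kept barcodes the medians were 3009 to 4583 in Fpr2f/f and 6219 to 6867 in Fpr2VKO libraries. The part of the mitochondrial percentage in the differences described further on was not tested.

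Most members carried far more of the rule than it asked for. A median of 8 or 9 of the 9 genes was detected per member in each library, and 182 members held all 9. Just inside the threshold were 14 members with exactly 3 of the genes, 9 with an Epcam UMI and 3 with a UMI of Cd3d or a receptor chain. Just outside were 26 barcodes with 2 of them, all 26 with an Epcam UMI and 1 with a UMI of Cd3d or a receptor chain, and 18 barcodes with 3 or more that lacked Cd3e, Cd3g and Cd8a.

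Of the genes given as markers, Cd3g and Cd3e, chains of the CD3 complex that carries the signal of the T cell receptor, were detected in 287 and 284 members. Ccl5, a chemokine that attracts T cells, was detected in 283, Cd8a in 260, and Gzma, a granule protease of killer cells, in 256. Summed over all libraries, Gzma reached 18074 CPM (counts-per-million, UMIs of a gene scaled to a common total) in the members and 3.22 CPM in the other kept barcodes. The corresponding levels of Cd3e were 807 and 0.286 CPM. For Cd8a they were 649 and 0.125 CPM. A Gzma UMI was found in 83.9% of members and in 3.77% of the other kept barcodes.

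Genes that the rule did not use described the same kind of cell. The 20 genes with the largest ratio of member to other levels, among those at 200 CPM or more in the members, began with the T cell receptor β constant gene Trbc2 (1014 against 0.161 CPM), the γ constant gene Tcrg-C1 (269 against 0.067 CPM), and Cd3d (517 against 0.130 CPM). The receptor constant genes Tcrg-C4, Tcrg-C2, Trbc1, Trac and Trdc were also among the 20. Others were the killer cell receptor chain Klrd1 (714 against 0.317 CPM), the G protein signalling regulator Rgs1 (1814 against 0.925 CPM), the interleukin-2 and interleukin-15 receptor chain Il2rb (654 against 0.344 CPM) and the transcription factor Ikzf2, also called Helios (2661 against 2.30 CPM). These ratios are descriptions, since the members were chosen on transcripts of the same cells.

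**Figure D2:**
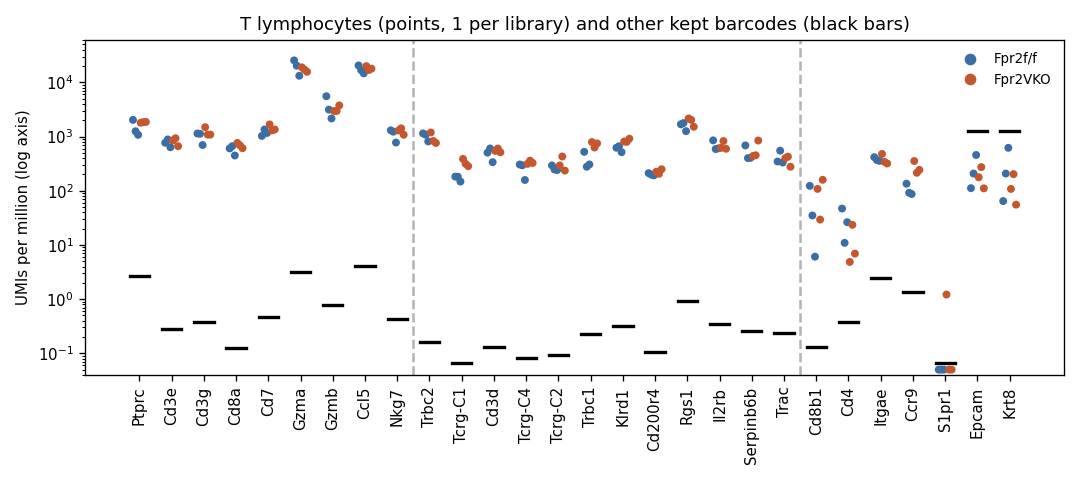
Levels in CPM (log axis) of the 9 rule genes (left of the first dashed line), the 12 leading genes outside the rule (middle) and 7 further genes (right). Points are the members of each library, black bars are all other kept barcodes together, and values at 0 are drawn at the lower edge: the genes left and middle lie far above the bars in all 6 libraries, while the epithelial genes Epcam and Krt8 lie below them.

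Genes of tissue residence were present and genes of recirculation were nearly absent. Itgae was detected in 238 members (78.0%, against 2.58% of other barcodes). Its level was 417, 369 and 356 CPM in Fpr2f/f and 478, 341 and 319 CPM in the Fpr2VKO libraries, so the groups overlapped. Cd69, which holds T cells in tissue by keeping the exit receptor S1pr1 from the surface, was detected in 134 members. S1pr1 itself had a UMI in 1 member, and Ccr7, the receptor for entry into lymph nodes, had one in 4.

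Genes of the cytotoxic list varied widely in how many members held them. Besides the granzymes of the rule, the granule proteoglycan Srgn was detected in 290 members, Ctsw in 208, the death ligand Fasl in 139 and perforin (Prf1) in 51. Gzmk was detected in 46 members, Gzmm in 6 and Gzmc in 5, and the lysosomal protein Lamp1 was lower in members, at 69.5 CPM, than in other barcodes, at 110 CPM. Of the chemokine and cytokine list, Tnfsf10 was detected in 90 members, Ccl4 in 52, Ccl3 in 48 and Ltb in 25. Transcripts of several other cytokines were few. Ifng had UMIs in 7 members and Il17a in 1, and Il22, Csf1 and Csf2 had none, where 0 of 2430039 member UMIs allows up to 1.23 CPM. The xenobiotic receptor Ahr, on which gut T cells depend, was detected in 76 members, Runx3 in 173 and Tbx21 in 100, while Foxp3 and Eomes each had UMIs in 3. Klrg1, a receptor of circulating effector cells, had none.

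Epithelial transcripts were found in many members. An Epcam UMI was present in 144 of the 305, in 35.7% to 57.5% of members per library, against 94.4% to 97.8% of the other barcodes. The 15 genes of an epithelial list took 0.137%, 6.43% and 4.15% of member UMIs in Fpr2f/f and 0.223%, 0.312% and 0.253% in the Fpr2VKO libraries (exact permutation p = 0.4). Fpr2f/f replicates 2 and 3 had 3 members with 92157, 57543 and 83149 UMIs, which held 20.1%, 11.7% and 16.8% of the member UMIs of their libraries. The high values of these replicates came largely from the members of 92157 and 57543 UMIs. The list took 28.4% and 29.4% of their UMIs, against 3.04% in the member of 83149 UMIs. Among members of at most 40000 UMIs, the list took 0.137%, 0.886% and 0.299% in Fpr2f/f libraries. Defa24, a defensin of Paneth cells, was at 147, 53964 and 29660.2 CPM in members of the Fpr2f/f and 611, 887 and 1115 CPM in members of the Fpr2VKO libraries. In Fpr2f/f replicate 2 this was above the 41048 CPM of the other kept barcodes, and the Paneth cell lysozyme gene Lyz1 was at 8366 CPM in members against 7875 CPM in other barcodes. In members with Cd3e or Cd3g and at most 40000 UMIs, Defa24 was at 158, 5520.3 and 388 CPM in Fpr2f/f libraries. A score against artificial doublets marked 12 members, none of these 3 among them. Of the 305 member barcodes, 1 sequence occurred in the member sets of a pair of libraries and 8 were kept in another library. Among all 17104 kept barcodes, 123 were shared between libraries. Equal chances for all listed barcodes give 50.6 expected shared pairs, and the cause of the sharing was not tested.

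The members of 92157, 57543 and 83149 UMIs held 1, 1 and 0 UMIs of Cd3 and receptor chain genes, so the name T lymphocyte is not borne out for them. For 8 further members the data went against the name T lymphocyte. They were found among the 10 members with neither Cd3e nor Cd3g, and this subset was singled out after its values were seen, so no test was run on it. They lay in Fpr2f/f replicates 1 and 2 (1 each), in Fpr2VKO replicate 1 (3), in Fpr2VKO replicate 2 (1) and in Fpr2VKO replicate 3 (2). They met the rule through Ptprc, Cd8a and Cd7, and 2 of them also held 1 granzyme UMI. None had a UMI of Cd3d, Trac, Trbc1, Trbc2, Trdc, Ccl5 or Nkg7, where 0 of their 124503 UMIs allows up to 24.1 CPM. Each held 11310 to 22544 UMIs, and none was scored as a doublet.

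These 8 barcodes shared another set of genes. Each had 13 to 42 UMIs of Siglech, a sialic acid binding receptor, and Siglech was detected in 0 of the 295 members with Cd3e or Cd3g, which allows up to 1.02% of members with a Siglech UMI and sets no limit on members that express the gene. Each also had 11 to 91 UMIs of the transcription factor Tcf4 and 5 to 41 UMIs of the interferon regulatory factor Irf8. The membrane protein Bst2 had 5 to 28 UMIs in each. They held all member UMIs of Siglech and Clec9a, 94.2% of those of Cybb, a subunit of the phagocyte NADPH oxidase, and 84.8% of those of the lipoprotein receptor Lrp8. They also held 66.9% of the UMIs of the immunoglobulin heavy chain gene Ighm, 50% of Cd8b1 and 39.0% of Ccr9. The defining B cell genes Cd79a and Ms4a1 were at 0 in all members. A further 22 kept barcodes outside the members had a Siglech UMI. The remaining 2 members without Cd3e and Cd3g were the barcode of 83149 UMIs, with 112 Epcam UMIs, and a barcode of 4914 UMIs with 12 Gzma and 6 Trbc1 UMIs.

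**Figure D3:**
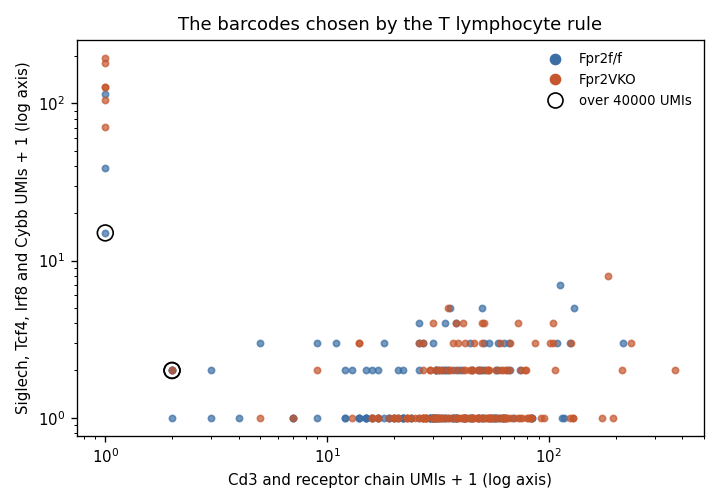
Each point is 1 of the 305 members, with its summed UMIs of Cd3d, Cd3e, Cd3g and 7 receptor constant genes (horizontal) against its summed UMIs of Siglech, Tcf4, Irf8 and Cybb (vertical), each plus 1 on a log axis, and rings mark members over 40000 UMIs. The 8 barcodes with Siglech stand at the upper left, with 0 UMIs of the first set and 38 to 193 of the second.

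Receptor chains divided the members. Trac, the α chain constant gene (GRCm38 chromosome 14, 54220521 to 54224206, plus strand), was detected in 229 members, and Trdc, the δ chain constant gene (chromosome 14, 54142851 to 54148868, plus strand), in 101. Of the 305, 165 had Trac without Trdc, 37 had Trdc without Trac, 64 had both and 39 had neither. A UMI of a γ constant gene was found in 264 members and one of a β constant gene in 280, so transcripts of these chains did not follow 1 receptor type. Trbc1 and Trbc2, and likewise the γ constant genes, are near copies of each other, and how reads that match both were counted is not given in the sources used here.

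The share of members with a Trdc UMI was compared after each member was thinned to 3300 UMIs, which left out 2 to 8 shallower members per library. It was 26.1%, 22.0% and 15.7% in Fpr2f/f and 46.4%, 32.6% and 35.0% in the Fpr2VKO libraries. The lowest Fpr2VKO value lay above the highest Fpr2f/f value. The means were 21.3% ± 5.24 and 38.0% ± 7.39 (SD, n = 3 each), a difference of 16.8 percentage points at the smallest p that the design allows (exact permutation p = 0.1, adjusted over the 4 genes compared p = 0.4). Without thinning the means were 22.2% ± 6.04 and 41.0% ± 6.36. In the other kept barcodes the share was 0.0157% to 0.281% at the same depth.

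This separation held when members without Cd3e and Cd3g and those over 40000 UMIs were left out, but not in every subset. Among members with Cd3e or Cd3g and at most 40000 UMIs, the shares were 27.3%, 22.9% and 16.3% against 48.1%, 34.1% and 44.4%. Among members with no Epcam UMI, they were 26.7%, 25.9% and 25.9% against 41.2%, 25% and 50%, and the groups overlapped. As a level over all members, Trdc reached 417, 188 and 97.2 CPM in Fpr2f/f and 516, 276 and 415 CPM in the Fpr2VKO libraries. Here the groups overlapped, with a log2 fold change of 0.75 ± 0.51 (SE, edgeR adjusted p = 0.949).

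Constant genes of other chains were set beside Trdc after seeing the data, with no test, by the share expected over all draws of 3300 UMIs. Trbc1 was at 48.2%, 34.2% and 43.4% in Fpr2f/f and 59.5%, 48.5% and 58.8% in the Fpr2VKO libraries. Tcrg-C1 was at 28.9%, 33.5% and 34.6% against 47.3%, 47.3% and 47.0%. Both lay higher in each Fpr2VKO library, as Trdc did, while Trbc2, Tcrg-C2 and Tcrg-C4 overlapped between the groups. Without thinning, Tcrg-C4 also lay higher in each Fpr2VKO library (55.9% to 59.6% against 63.6% to 74.7%).

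For Trac the groups overlapped. A Trac UMI was found in 47.8%, 74.0% and 70.6% of thinned Fpr2f/f members and in 55.9%, 65.2% and 45% of thinned Fpr2VKO members (exact permutation p = 0.4, adjusted p = 0.533).

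Of the coreceptors, Cd8a belongs to the rule, so its presence in members was selected for. A Cd8a UMI without a Cd8b1 UMI was found in 224 members (73.4%), and both in 36. Cd8b1 was sparsely detected, in 38 members, so a member without its UMI is not shown to lack it. Of these 38, 6 were barcodes with Siglech, and they held 50% of the member UMIs of Cd8b1. At 3300 UMIs, Cd8b1 was detected in 21.7%, 8% and 3.92% of Fpr2f/f and in 13.1%, 10.9% and 10% of Fpr2VKO members (exact permutation p = 1). The sign of this difference turned in several subsets of members, among them those with Cd3e or Cd3g, where it was -4.62 percentage points. Cd4, the coreceptor of helper T cells, was detected in 17 members. Its share at equal depth was 13.0%, 2.00% and 7.84% in Fpr2f/f and 1.19%, 2.17% and 5% in the Fpr2VKO libraries (exact permutation p = 0.3, adjusted p = 0.533), from 1 random draw. The expected share over all draws, added after seeing the data, was 11.3%, 3.14% and 4.75% against 1.73%, 2.34% and 2.75%, lower in each Fpr2VKO library (6.40% against 2.27% on average, exact permutation p = 0.1). The overlap of the groups for Cd4 therefore depended on the draw.

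**Figure D4:**
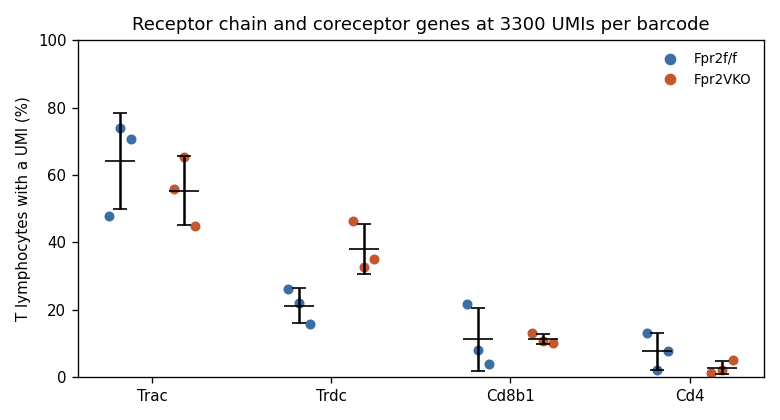
Percentage of members with a UMI of Trac, Trdc, Cd8b1 and Cd4 in each library after 1 random thinning to 3300 UMIs (points), with mean and SD of 3 libraries per group (black). In this draw the groups do not overlap for Trdc and overlap for the other 3 genes, while for Cd4 they do not overlap in the expected share over all draws.

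The 101 members with Trdc differed from the 204 without it in further genes, given here as levels over all libraries together and with no test, since the split was made on the same cells. Their median depths were close, at 6151 and 5901.5 UMIs. Tcrg-C1 was at 661 CPM with Trdc and 105 CPM without, higher in 6 of 6 libraries. Gzmb was at 5027 and 2240 CPM, higher in 5 of 6 libraries. The lipid receptor Gpr55 (454 and 258 CPM) and the protease Ctsw (371 and 207 CPM) were higher in 6 of 6. So were the general T cell genes Cd3g (1577 and 979 CPM) and Cd3d (647 and 462 CPM), so this count is not particular to Gpr55 and Ctsw. Among other T cell genes, Lck was higher in 4 of 6 libraries and Trbc2 lower in 6 of 6. Trac was lower in 6 of 6 libraries, at 225 and 483 CPM. Cd5, a brake on T cell receptor signalling, had 0 CPM with Trdc and 51.4 CPM without, and Cd8b1 was found in 4 of the 101 and in 34 of the 204.

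The 204 members without Trdc included the 8 barcodes with Siglech and the 3 members over 40000 UMIs. Leaving out all 12 members that lacked Cd3e and Cd3g or exceeded 40000 UMIs took 21.1% of the UMIs of that side and left 192 members, with the 101 unchanged. Over these 192, Tcrg-C1 was at 132 CPM, Gzmb at 2838 CPM and Gpr55 at 320 CPM. The levels with Trdc stayed above them in 6, 5 and 6 of 6 libraries. Ctsw was at 262 CPM over the 192 and was higher with Trdc in 5 of 6 libraries. Trac was at 613 CPM and Cd5 at 65.1 CPM, and Cd8b1 was found in 28 of the 192.

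Genes were then compared between the groups in UMIs summed over the members of each library, with the library as replicate. Over all 305 members, 0 of 5561 genes tested (0%) passed an adjusted p of 0.05 in the edgeR quasi-likelihood test, although 297 had an unadjusted p under 0.05. The DESeq2 test called 4, of which Antxr2, Ccr9 and Mt1 were higher and Zg16 was lower in Fpr2VKO libraries. Without Fpr2f/f replicate 1 edgeR called 81 genes and without Fpr2VKO replicate 2 it called 8. Of the 81, 56 were lower in Fpr2VKO libraries, with the Paneth cell genes Defa24 and Lyz1 among them. The median log2 fold change of all genes tested was -0.003.

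The genes with the smallest p among the higher ones were largely those of the 8 barcodes with Siglech. Cybb was at 46.9, 4.37 and 4.05 CPM in Fpr2f/f and at 169, 156 and 145 CPM in the Fpr2VKO libraries, with no overlap (log2 fold change 3.56 ± 0.54, SE, edgeR adjusted p = 0.0729). Without members that lacked Cd3e and Cd3g or exceeded 40000 UMIs, Cybb was at 12.6, 2.83 and 5.66 against 10.5, 0 and 0 CPM. Ighm was at 23.5, 13.1 and 6.07 against 77.8, 70.5 and 159 CPM (2.76 ± 0.49, adjusted p = 0.0729). Both passed the threshold when only the 3 members over 40000 UMIs were left out, with adjusted p = 0.00433 for Cybb and 0.0191 for Ighm. Lrp8 was at 35.2, 10.9 and 4.05 against 68.0, 64.6 and 145 CPM (adjusted p = 0.252). The number of the barcodes with Siglech, 2 in Fpr2f/f and 6 in Fpr2VKO libraries, moved with these levels. In the other kept barcodes Cybb was at 0.211 to 1.56 CPM and Lrp8 at 2.89 to 5.35 CPM, while Ighm was at 0.181 to 4.93 CPM in 5 libraries and at 115 CPM in Fpr2VKO replicate 2.

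Ccr9, the gut homing receptor, was at 135, 91.8 and 87.0 CPM in Fpr2f/f and at 354, 214 and 242 CPM in the Fpr2VKO libraries, with no overlap (log2 fold change 1.28 ± 0.25, SE, adjusted p = 0.135). Among members with Cd3e or Cd3g and at most 40000 UMIs it was at 114, 105 and 122 against 178, 175 and 159 CPM. The groups still did not overlap there, with a log2 fold change of 0.60 (adjusted p = 0.9999). Ccr9 did not pass the edgeR test in either set of members with all 6 libraries and the filter on low counts. Over all members it was called by DESeq2 (adjusted p = 0.0458), and by edgeR with no filter on low counts (adjusted p = 0.000509), without Fpr2f/f replicate 1 (adjusted p = 0.00888) and without Fpr2VKO replicate 2 (adjusted p = 0.0302).

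The lower genes with the smallest p did not pass the edgeR test either with all 6 libraries and the filter on low counts. Zg16, a goblet cell lectin, was at 522, 326 and 279 CPM in Fpr2f/f and at 59.5, 153 and 34.6 CPM in the Fpr2VKO libraries (log2 fold change -2.25 ± 0.44, SE, adjusted p = 0.41). Its level in the other kept barcodes was 1777 to 3327 CPM. The ribosomal protein genes Rpl41 and Rpl15, the protein disulfide isomerase P4hb and Tulp4 followed, with log2 fold changes of -0.53, -0.91, -0.99 and -0.66 and an adjusted p of 0.612 each. P4hb and Rpl41 overlapped between the groups. EdgeR called Zg16 with no filter on low counts and without Fpr2VKO replicate 2, and it called P4hb without Fpr2f/f replicate 1.

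Leaving out the members without Cd3e and Cd3g and those over 40000 UMIs kept 293 members, a set chosen after seeing the data. In it, 1 of 5102 genes tested (0.0196%) was called by edgeR, with 189 at an unadjusted p under 0.05. This gene was Mt1, which encodes the metal-binding protein metallothionein 1 (GRCm38 chromosome 8, 94179082 to 94180327, plus strand). Mt1 was at 12.6, 59.3 and 39.6 CPM in Fpr2f/f and at 150, 244 and 167 CPM in the Fpr2VKO libraries. All 3 Fpr2VKO libraries lay above all 3 Fpr2f/f libraries (log2 fold change 2.14, adjusted p = 0.00442). Over all 305 members the values were 11.7, 59.0 and 50.6 against 140, 244 and 145 CPM (1.74 ± 0.39, SE, adjusted p = 0.369), from 2 to 115 UMIs per library. EdgeR also called Mt1 with at least 4 rule genes, in members with Cd3e or Cd3g, with no filter on low counts and without Fpr2f/f replicate 1. With a mitochondrial limit of 10% the log2 fold change was 0.95 (adjusted p = 0.829).

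Mt1 moved in the rest of the library as well. In the other kept barcodes it was at 286, 242 and 365 CPM in Fpr2f/f and rose to 1127, 1110 and 1174 CPM in Fpr2VKO libraries (log2 fold change 1.99, edgeR adjusted p = 0.0004). In barcodes under 100 UMIs, taken as free RNA, it was at 148, 161 and 236 against 865, 934 and 1111 CPM. The Mt1 level in the 293 members was 4.42%, 24.5% and 10.8% of that in other barcodes in Fpr2f/f and 13.3%, 22.0% and 14.2% in the Fpr2VKO libraries, with overlapping groups. The difference of Mt1 between the groups was not shown to differ between members and other barcodes (edgeR interaction, adjusted p = 0.97). The stem cell gene Olfm4 had 11.7, 21.8 and 20.2 against 68.0, 99.8 and 90.01 CPM in members (log2 fold change 1.91, edgeR adjusted p = 0.213), beside 613 to 912 against 1595 to 1770 CPM in other barcodes and 251 to 297 against 546 to 647 CPM in free RNA. Olfm4 was called in members with Cd3e or Cd3g, a set added after seeing the data (edgeR adjusted p = 0.0492), without Fpr2f/f replicate 1 (edgeR adjusted p = 0.0342) and with no filter on low counts (edgeR adjusted p = 0.00488), and its log2 fold change was 0.69 at a mitochondrial limit of 40%. The part of free RNA in either member level was not tested.

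**Figure D5:**
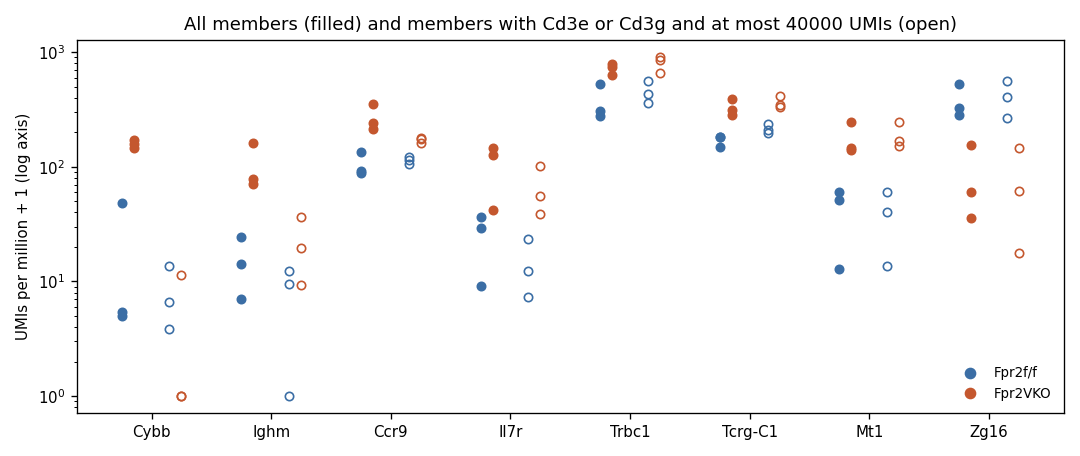
Level in CPM plus 1 (log axis) of 8 genes in each library, over all members (filled) and over the 293 members with Cd3e or Cd3g and at most 40000 UMIs (open). The open points of Cybb and Ighm overlap between the groups, while those of the other 6 genes do not.

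The lists of T cell genes were described by how many of their genes separated the groups. Over all 5561 genes tested, 627 (11.3%) lay higher in every Fpr2VKO library than in any Fpr2f/f library and 97 (1.74%) lay lower. In the 293 members the shares were 5.33% higher and 3.96% lower. These shares are set beside the counts of each list below, and no list was tested as a set. Overlap was judged in CPM, whereas the log2 fold changes use the library scaling of edgeR (TMM). The members of 92157, 57543 and 83149 UMIs held 20.1%, 11.7% and 16.8% of the member UMIs of their Fpr2f/f libraries. They had 1, 1 and 0 UMIs of Cd3 and receptor chain genes, which lowers the CPM of T cell genes in those libraries. The shares over all members are therefore no matched background for T cell genes, while the 293 members exclude those barcodes. Of the 7 receptor chain genes tested, Trbc1, Tcrg-C1 and Tcrg-C4 lay higher without overlap and 0 lay lower, with a median log2 fold change of 0.24, and in the 293 members Trbc1 and Tcrg-C1 did. None was called by edgeR with all 6 libraries and the filter on low counts. Trbc1 was at 522, 278 and 306 CPM in Fpr2f/f and at 792, 628 and 748 CPM in the Fpr2VKO libraries (log2 fold change 0.86 ± 0.19, SE, adjusted p = 0.252), and edgeR called it without Fpr2f/f replicate 1 (adjusted p = 0.00529) and with no filter (adjusted p = 0.0133). Tcrg-C1 was at 182, 181 and 148 against 386, 314 and 284 CPM (0.80 ± 0.22, adjusted p = 0.582). Trbc2 was at 1144, 1084 and 814 against 1190, 828 and 762 CPM and overlapped.

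Of the receptor signalling genes, 14 of 17 could be tested and edgeR called 0. Of the 14, 3 lay higher without overlap (21.4%, against 11.3% of all genes tested), the kinase Txk and the phosphatase Ptpn22 among them. None lay lower, and the median log2 fold change was 0.14. Txk was at 205, 190 and 186 against 263, 235 and 332 CPM (log2 fold change 0.32 ± 0.21, SE, adjusted p = 0.949). In the 293 members both Txk and Ptpn22 overlapped between the groups. There 7.14% of the 14 lay higher without overlap, against 5.33% of all genes tested, and the median was 0.10. Themis, a regulator of T cell selection, was at 282, 133 and 113 against 249, 261 and 319 CPM and overlapped.

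Of 17 homing and residence genes tested, edgeR called 0 and DESeq2 called Ccr9. Of the 17, 6 lay higher without overlap (35.3%, against 11.3% of all genes tested) and 0 lay lower, with a median log2 fold change of 0.29. Those 6 were the integrin chains Itgb7 and Itga1, Ccr9, the signalling regulator Rgs2, the lipid receptor Gpr18 and the receptor Cd96. Itgb7, the partner of Itgae, was at 82.1, 72.1 and 89.1 against 150, 126 and 145 CPM (log2 fold change 0.61 ± 0.25, SE, adjusted p = 0.838). Rgs2 was at 857, 667 and 502 against 876, 1142 and 1129 CPM. In the 293 members 16 genes could be tested, and Itgb7, Itga1, Ccr9 and Rgs2 lay higher without overlap (25%, against 5.33% of all genes tested). Of the 16, 9 had an estimate above 0, and the median was 0.15.

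The granzymes of the rule are given as a description, since members were selected on them. Gzma was at 25444, 20340.4 and 13247 CPM in Fpr2f/f and at 18946, 17251 and 15682 CPM in the Fpr2VKO libraries. Gzmb was at 5550.0, 3143 and 2158 against 2964, 2963 and 3753 CPM. Of 8 cytotoxic genes tested beyond the rule, edgeR called 0 and 0 lay apart in either direction, with a median log2 fold change of -0.01. Of 9 tested genes of killer cell receptors and their adaptors, Klrd1 lay higher and Klre1 lower without overlap, and in the 293 members Klre1 alone lay apart. Klre1 was at 188, 214 and 239 against 140, 162 and 159 CPM (log2 fold change -0.69, adjusted p = 0.704).

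Of 3 chemokine and cytokine genes tested 0 lay apart. Ccl4, a chemokine of activated T cells, had log2 fold changes of 0.91 over all members and -0.15 in the 293 members, so its sign rested on the barcodes left out. Of 6 cytokine receptors tested, Il7r lay higher without overlap, at 35.2, 28.4 and 8.10 against 145, 41.1 and 125 CPM (edgeR adjusted p = 0.612), and 54.6% of its member UMIs belonged to the 8 barcodes with Siglech. In the 293 members Il7r was at 6.31, 22.6 and 11.3 against 55.1, 37.5 and 100 CPM (adjusted p = 0.866). EdgeR called Il7r without Fpr2VKO replicate 2 (adjusted p = 0.0302), with no filter on low counts (adjusted p = 0.000172) and in members with no Epcam UMI (adjusted p = 0.00618).

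Among 16 transcription factors tested, Tbx21, Ahr and Nr4a3 lay higher without overlap (18.8%, against 11.3% of all genes tested) and 0 lower. The median log2 fold change of the 16 was 0.21, and in the 293 members Nr4a3 alone lay higher (6.25%, against 5.33%). Nr4a3, an early response gene of receptor stimulation, was at 194, 192 and 158 against 335, 252 and 249 CPM (adjusted p = 0.895). Of 5 checkpoint receptors tested, Ctla4, which restrains T cell activation, lay lower without overlap, at 317, 179 and 182 against 164, 120 and 34.6 CPM (log2 fold change -1.02 ± 0.36, SE, adjusted p = 0.819). It did so in the 293 members too, at 341, 232 and 255 against 172, 128 and 41.8 CPM (adjusted p = 0.866). Of 14 lymphocyte housekeeping genes tested, Cd48 alone lay higher without overlap, and its log2 fold change was 0.32.

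Whether a difference between the groups was particular to the members was tested in 1 fit with the other kept barcodes of each library. In it 0 of 5561 genes (0%) were called by edgeR, although 306 had an unadjusted p under 0.05. The DESeq2 test called 7. Without Fpr2f/f replicate 1 edgeR called 43 genes and without Fpr2VKO replicate 2 it called 9. The smallest p among genes with a larger difference in members belonged to H2-Eb1, a class II antigen presentation gene at 11.7, 32.8 and 26.3 against 124, 64.6 and 194 CPM, to Cybb and to Lrp8. The 8 barcodes with Siglech held 70.9% of the member UMIs of H2-Eb1. Those with a smaller or opposite difference in members were the fatty acid binding protein genes Fabp6 and Fabp5 and the peptide hormone gene Guca2a, all 3 with overlapping groups. Fabp6 was at 23.5, 78.7 and 660 against 32.8, 5.87 and 20.8 CPM, high in Fpr2f/f replicate 3.

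The lists of other cell types outside the epithelium gave the following levels in members. Genes of granulocytes and mast cells had 0 UMIs. The summed level of 5 B cell genes was 6.07 to 29.3 CPM in Fpr2f/f and 79.3 to 173 CPM in Fpr2VKO members, from Ighm and Cd79b alone. The 5 plasma cell genes summed to 0 to 6.56 and 14.6 to 27.7 CPM, with Jchain at 0. The 9 myeloid genes summed to 32.4 to 106 and 102 to 235 CPM, with Csf1r, Adgre1, C1qa, C1qb and Xcr1 at 0. All member UMIs of Clec9a, 1 of these genes, lay in the barcodes with Siglech. The 6 genes of NK cells and innate lymphoid cells summed to 6.07 to 11.7 and 10.9 to 27.7 CPM, and the 5 genes of stroma and endothelium to 8.10 to 52.8 and 23.5 to 62.3 CPM. T cell genes outside the rule summed to 3413 to 4799 and 4590 to 5672 CPM. The 8 tuft cell genes, from the epithelial class that also uses Ptprc, summed to at most 23.5 CPM in any library, against 2515 to 5194 CPM in 340 tuft barcodes. Fpr2 had 0 UMIs in members, in other kept barcodes and in free RNA, so it gave no check of the labels.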

How the data were processed

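Single-cell libraries of EpCAM-sorted ileal crypt cells were deposited as raw UMI counts per gene and barcode, which the authors made with MobiVision on mm10 without cell calling (2359296 barcodes and 32285 genes listed over all libraries). The annotation version and the treatment of reads that match several genes are not given in the sources used here. The submitters' processing notes name Seurat 4.0 and 4.0.0. The study tested single cells, which was not done here, since cells of 1 library are not replicates.

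The members, lists and tests were chosen with earlier results of these data known. Raw counts were summed over members per library and tested with edgeR 4.0.16 (quasi-likelihood, TMM, filterByExpr, R 4.3.3, limma 3.58.1), with Benjamini-Hochberg adjustment over all genes tested and a threshold of 0.05, and the scripts were tested on simulated data. Differences particular to members were tested as an interaction with the other kept barcodes of each library. The SE of an edgeR log2 fold change was derived as its absolute value over the square root of the quasi-likelihood F statistic. Shares were compared with exact two-sided permutation tests over libraries (scipy 1.17.1, Python 3.11.15), after each member was thinned to 3300 UMIs (the 10th percentile). Wilson intervals (95%) and limits from a count of 0 (3 counts) cover counting error only. Doublets were scored against 25% artificial doublets (scikit-learn 1.9.0), with 0.8% marked per 1000 barcodes, 428 in all, and were kept except in an alternative. Free RNA was not removed, and barcodes under 100 UMIs were taken to show it. Positions come from GENCODE M21 (GRCm38), in which 32235 of 32285 gene identifiers were found.

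Genes named were the 9 rule genes, members of the fixed lists, Fpr2, Mt1 and Mt2, the 20 leading genes at 200 CPM or more, and up to 5 higher and 5 lower genes of the group test (3 each for the interaction) at a mean of 50 CPM or more, filled by the smallest p where none was called. Others were named after their values were seen. Some listed genes are not reported here. Alternatives were other mitochondrial limits, 4 rule genes, members with no Epcam UMI, doublets removed, DESeq2 1.42.0 and its size factors, other count filters, a replicate block, tuft barcodes as reference and each library left out. Sets without members over 40000 UMIs or without Cd3e and Cd3g, and expected shares over all draws, were added after seeing the data.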

Additional observations from a re-analysis of the deposited data

How the results depend on the processing

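The number of genes called between the groups was 0 in the edgeR test and rose with several choices. It was 1 with at least 4 rule genes, 14 in members with no Epcam UMI, 63 with no filter on low counts, 2 with a minimum count of 3 and 4 with DESeq2. The 14 included Siglech, Tcf4, Bst2, Cybb and H2-Eb1, genes whose member UMIs lay mostly in the 8 barcodes with Siglech. Of sets added after seeing the data, members of at most 40000 UMIs gave 2, members with Cd3e or Cd3g 2, and both limits together 1. Leaving out 1 library at a time gave 0 to 81, with the highest count without Fpr2f/f replicate 1. Of these 81 genes, 25 were higher, among them Cybb and Lrp8 as well as Mt1, Ccr9 and Trbc1. The other 56 were lower, with the epithelial genes Defa24, Lyz1 and Guca2a among them. The interaction gave 66 with no filter, 1 with a minimum count of 3, 7 with DESeq2 and 0 to 43 when 1 library was left out. The cause of these changes was not tested.

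The difference in the share of members with Cd8b1, 0.101 percentage points, changed sign to -5.23 with at least 4 rule genes, -4.62 with Cd3e or Cd3g, -4.02 with both added limits, -1.25 with no Epcam UMI, -0.864 and -2.75 at mitochondrial limits of 10% and 40%, and -0.294 without scored doublets, and it ranged from -3.55 to 5.36 when 1 library was left out. The log2 fold change of Trac ranged from -0.505 to 0.035 when 1 library was left out, the latter without Fpr2f/f replicate 2, and that of Ccl4 to -0.12 with Cd3e or Cd3g and -0.15 with both added limits. The other compared shares, depths and epithelial percentages kept their direction in the alternatives run, but the overlap of the groups for Cd4 ended with the expected share over all draws.

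No pairing of the libraries by replicate number was seen, though this check cannot exclude one with so few libraries. Same-numbered libraries had correlations of 0.06, 0.01 and -0.05 of their deviations from the group means. Differently numbered libraries had -0.102 to 0.123. A fit with the replicate block called 0 genes in both comparisons, and the paired test of the Trdc share gave an exact p of 0.25, the smallest that 3 pairs allow. With 22 to 87 members per library, depth limits genes of few UMIs.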

Other observations

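A Mki67 UMI was found in 60 of the 305 members (19.7%) and in 39.98% of the other kept barcodes. Its level was 93.4 CPM in members, 116 CPM in other barcodes and 71.5 CPM in free RNA. Whether any members were cycling was not tested. The summed level of 10 cell cycle genes ranged from 684 to 1320 CPM over the Fpr2f/f libraries and from 402 to 1876 CPM over the Fpr2VKO libraries. Pcna was at 382 CPM in members and 273 CPM in other barcodes, and Ccnb1 at 10.7 and 35.9 CPM. Of 9 tested, 0 separated the groups, with a median log2 fold change of -0.12. In members with Cd3e or Cd3g and at most 40000 UMIs, the replication clamp gene Pcna was at 234 CPM with a Trdc UMI against 533 CPM without and lower in 6 of 6 libraries. In the same set Mki67 was at 25.1 CPM with a Trdc UMI against 151 CPM without and lower in 5 of 6 libraries. These values carry no test because the split was made on the same cells. Pcna was at 116 CPM in free RNA and 273 CPM in other barcodes.

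Genes of dissociation and early response separated the groups only for Fosb among 12 tested, at 82.1, 67.8 and 48.6 CPM in Fpr2f/f and 35.2, 26.4 and 48.5 CPM in Fpr2VKO libraries (edgeR adjusted p = 0.796). The share lying lower was 8.33% in this list, against 1.74% of all genes tested. Of 6 interferon response genes tested, 0 separated the groups, with a median log2 fold change of 0.21. In members with Cd3e or Cd3g and at most 40000 UMIs, Gbp7 alone among 5 lay lower in Fpr2VKO libraries (20%, against 3.96% of all genes tested).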
